A study of Mus musculus with 5 samples.

Results

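Genes that move ions, chloride or glucose across the neuronal membrane were examined for their splicing after knockdown of PQBP1, a nuclear protein that binds spliceosome components. They were Atp2b1, Slc12a2, Slc12a5, Slc2a3 and Lrrc8a, chosen by name because the authors' deposited list of splicing events holds them, so each was known beforehand to have a listed change. The 5 genes are among 457 genes in that list. They account for 7 of its 585 events and for 14 of its 1402 junction entries, which are 12 distinct junctions because 2 skipping junctions are listed in 2 events each.

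The cells were cultured cortical neurons from C57BL/6 mouse embryos at E16.5, collected on day 5 in vitro. In the mock knockdown, 3 samples had received lentivirus with a non-targeting control shRNA, and in the PQBP1 knockdown 2 samples had received lentivirus with an shRNA against PQBP1. All 5 samples therefore carried a lentivirus and an shRNA, and none was left without virus. The labels name neither the hairpin sequence nor a second hairpin, and do not say whether samples came from separate cultures, so any p-value may rest on technical spread. The deposited table gives 1 p-value and 1 log2 fold for each junction, knockdown over control, and no value for any single sample, so no standard deviation, n or depth stands behind the values below. Gene levels are not in it either, so neither the level of Pqbp1 nor markers of neurons and glia could be checked. In RNA from a whole culture, a change of splicing within cells and a change in which cells contribute the transcripts cannot be told apart.

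Neurons depend on these transporters in distinct ways. Plasma membrane calcium pumps expel calcium from the cytoplasm after activity. NKCC1, the product of Slc12a2, brings chloride into the cell and KCC2, the product of Slc12a5, takes it out, and the balance of the pair sets whether GABA depolarises or hyperpolarises a neuron. GLUT3, encoded by Slc2a3, is the main glucose transporter of neurons, and LRRC8A is the obligatory subunit of the anion channel that opens when cells swell.

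In each event, competing junctions have one splice site in common and differ in the other. All 7 events had 2 junctions, called nearer and farther by the length of the intron removed. In Atp2b1 and Slc12a2 the choice was a cassette exon, so the nearer junction includes the exon and the farther one skips it. In Slc12a5 and Slc2a3 the choice was between alternative 5′ exons that each carry a start codon. In Lrrc8a it was between donors upstream of the annotated coding sequence. Positions are 1-based in mm10, and exons were taken from GENCODE M21 on the same assembly.

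**Figure D1:**
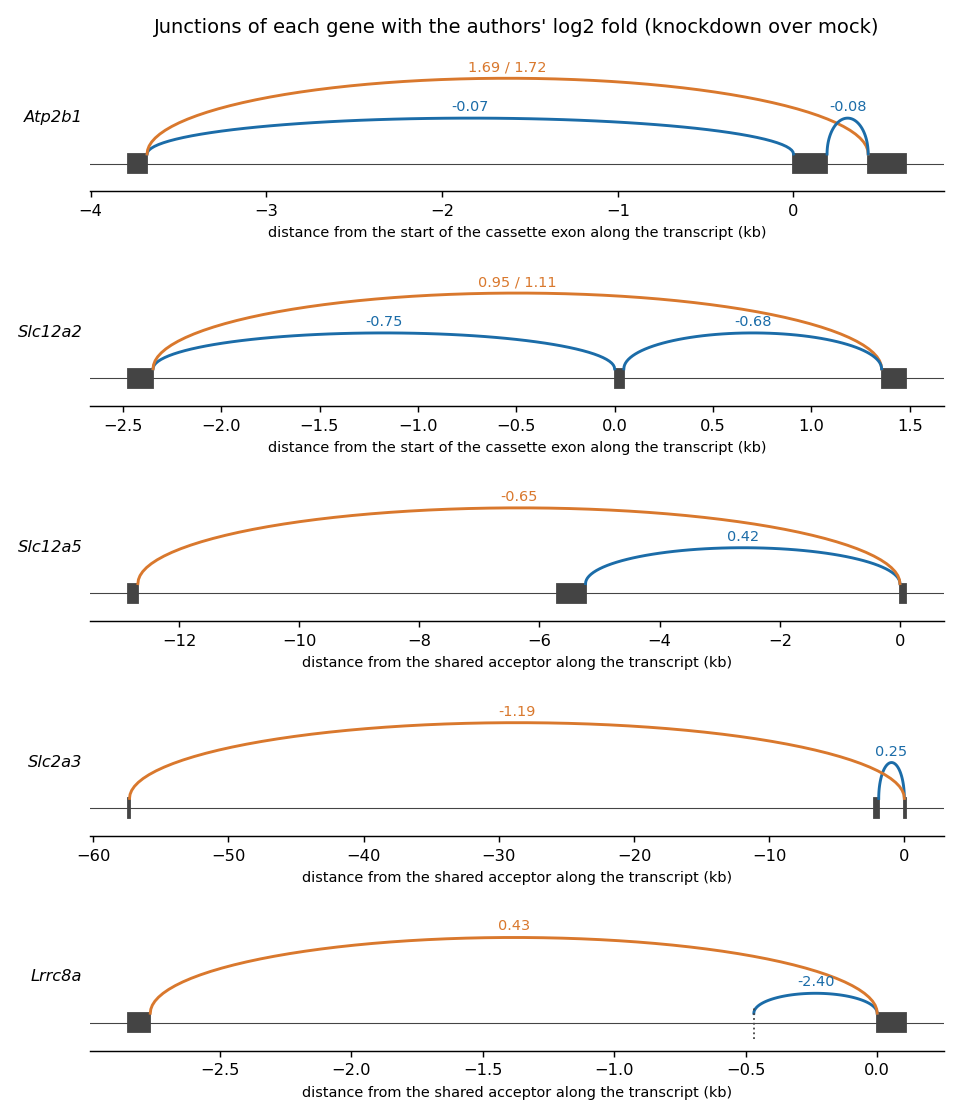
Junctions of the 5 genes, drawn to scale along the transcript, with the distance in kb from the start of the cassette exon (Atp2b1, Slc12a2) or from the shared acceptor (the others). Grey boxes are annotated exons, the dotted line is the Lrrc8a donor that has no annotated exon, and the numbers are the authors' log2 folds, knockdown over mock knockdown, for nearer (blue) and farther (orange) junctions; a skipping junction listed in 2 events has both values. The folds of competing junctions have opposite signs in every event.

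The coding sequences that these choices put into or leave out of the messenger RNA are shown first, since the results turn on them. The Atp2b1 cassette exon is given whole, with its first and last 3 bases in capitals to mark the edges that are joined to the neighbouring exons. It lies on the plus strand at chr10:99014459-99014650.
Atp2b1 cassette exon: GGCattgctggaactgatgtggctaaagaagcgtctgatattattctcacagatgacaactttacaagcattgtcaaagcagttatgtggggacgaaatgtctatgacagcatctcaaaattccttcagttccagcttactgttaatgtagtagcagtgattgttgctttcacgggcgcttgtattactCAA

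For the upstream exon of Slc12a5 and both alternative exons of Slc2a3 the coding part is given from its start codon, in capitals, to the donor. The Slc12a5 exon is on the plus strand at chr2:164960883-164961003, and those of Slc2a3 are on the minus strand at chr6:122797802-122797822 and chr6:122742376-122742390.
Slc12a5 upstream exon: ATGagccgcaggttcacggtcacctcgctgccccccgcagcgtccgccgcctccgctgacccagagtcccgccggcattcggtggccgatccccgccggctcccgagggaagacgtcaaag
Slc2a3 upstream exon: ATGgagagcagcaaacataat
Slc2a3 downstream exon: ATGgggacaacgaag

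Slc12a2 had the clearest exchange of one form for another. Its cassette exon, exon 21 of 27 in transcript Slc12a2-201 (gene ENSMUSG00000024597.11), is a coding exon of 48 nt on the plus strand at chr18:57934951-57934998. It is the alternative exon of NKCC1 known to hold a sorting signal for the basolateral membrane in epithelial cells, and the form without it is known from brain. Read from the upstream donor, the authors' deposited table gives a log2 fold of -0.75 for the junction into the exon and of 0.95 for the one that skips it (p = 0.0179). Read from the downstream acceptor, the authors' deposited table gives -0.68 for the junction out of the exon and 1.11 for the skipping junction (p = 0.00953). The inclusion junctions on either side of the exon thus moved down by like amounts, while the single skipping junction moved up in both listings.

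The ratio of inclusion to skipping in the knockdown was 0.307 times the mock ratio from the upstream side and 0.289 times from the downstream side. These are not independent measurements, because the skipping junction is the same in both. If the uses of the competing junctions add up to the whole in each group, the folds also fix how common each form was. On that reading inclusion went from 69.6% in the mock knockdown to 41.3% in the knockdown from the upstream side, and from 75.5% to 47.2% from the downstream side. The form with the exon was the more common one in the mock knockdown and the less common one after knockdown, from either side. The skipping junction, from 57932606 to 57936307, is not an intron of any GENCODE M21 transcript, although both of its splice sites are annotated. Exon 21 has 16 whole codons, and the coding sequence without it runs for 1190 codons instead of 1206 with no internal stop.

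Atp2b1, which encodes the plasma membrane calcium pump PMCA1, showed nearly the same change of ratio as Slc12a2 at a quite different level of skipping. Its cassette exon, exon 16 of 21 in Atp2b1-201 (gene ENSMUSG00000019943.10), is the coding exon of 192 nt printed above. PMCA genes are known for alternative splicing near the calmodulin-binding tail. Exon 16 lies upstream of the exons for that tail, where the catalytic part of the pump passes into its later membrane-spanning segments. In the authors' deposited table the log2 folds seen from the upstream donor were -0.07 for inclusion and 1.69 for skipping (p = 0.0468). Those seen from the downstream acceptor in the authors' deposited table were -0.08 and 1.72 (p = 0.0422). On the log2 scale only the skipping junction moved by much, in both listings. In implied share the competing junctions change by the same amount by construction.

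The inclusion ratio of Atp2b1 was 0.295 and 0.287 times the mock ratio from its 2 sides. The implied share of skipping went from 1.99% to 6.43% when read from the upstream donor, and from 2.15% to 7.11% when read from the downstream acceptor. Transcripts with the exon therefore remained at 93.6% and 92.9% of the event in the knockdown. The skipping junction, from 99010781 to 99014883, also joins annotated sites but is no annotated intron. The exon has 64 whole codons, and without it the coding sequence would run for 1156 codons instead of 1220 with no internal stop. Its p-values were the highest of the 7 events and lay just inside the limit of 0.05 under which every event of the list has a junction; events beyond that limit were not analysed here.

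**Figure D2:**
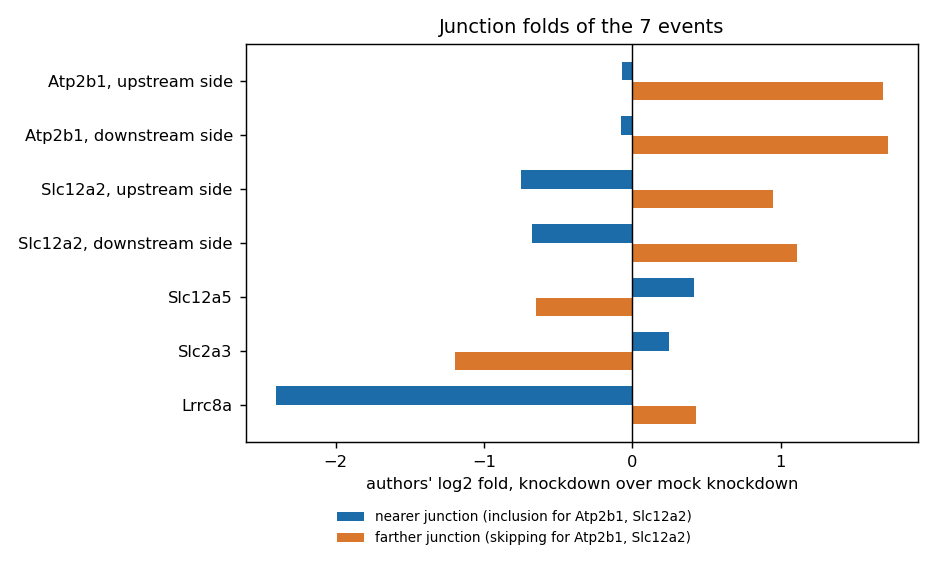
Bars give the authors' log2 fold, knockdown over mock knockdown, of the nearer (blue) and farther (orange) junction in each of the 7 events; no error bars are drawn because the table holds no replicate values. On this log2 scale nearly all of the Atp2b1 change is in the skipping junction (1.69 and 1.72). In Slc12a2 it is divided between the junctions, and in Lrrc8a it is mainly in the nearer junction (-2.40).

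In Slc12a5 the change was between the starts of the transcript. KCC2 is made with either of 2 amino-terminal ends, from an upstream exon (KCC2a) or a downstream one (KCC2b), and KCC2b is the form known for its steep increase as cortical neurons mature. The junction from the upstream exon to the shared exon at chr2:164973687-164973781 had a log2 fold of -0.65, and the junction from the downstream exon one of 0.42, in the authors' deposited table (p = 0.0298). Relative to the upstream exon, use of the downstream exon was 2.10 times the mock ratio. The implied share of the downstream, KCC2b exon went from 51.8% in the mock knockdown to 69.3% in the knockdown. Both exons were thus in wide use in the mock knockdown, and the downstream one prevailed after knockdown.

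The alternative Slc12a5 exons differ in how much coding sequence they supply. The upstream exon, printed above, contributes 121 coding bases and the downstream one 52, a difference of 69 bases or 23 codons. Both lengths leave 1 base over after whole codons, so both enter the shared exon in the same frame. The models that hold these exons, Slc12a5-207 (upstream) and Slc12a5-201 (downstream), run for 1133 and 1115 codons in full. They therefore also differ beyond these exons, and the rest of the products was not compared. Both junctions are annotated introns, of 12683 and 5232 bases, and the alternative donors are 7451 bases apart.

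Each of these exons has its own start site in RefSeq, and the 250 bases before each start are printed to show how the alternative promoters differ in sequence (RefSeq, GRCm38.p6, plus strand, chr2:164960596-164960845 and chr2:164967738-164967987). Capitals mark matches, on either strand, to the TATA box letters TATAAA, to the E-box core letters CACGTG and to the CAAT box letters CCAAT. These motifs share no position here.
Slc12a5 upstream start: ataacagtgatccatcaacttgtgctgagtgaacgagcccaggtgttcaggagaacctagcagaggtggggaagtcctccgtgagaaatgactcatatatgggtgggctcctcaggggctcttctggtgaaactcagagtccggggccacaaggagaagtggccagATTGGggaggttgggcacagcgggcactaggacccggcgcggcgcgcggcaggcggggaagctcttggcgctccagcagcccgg
Slc12a5 downstream start: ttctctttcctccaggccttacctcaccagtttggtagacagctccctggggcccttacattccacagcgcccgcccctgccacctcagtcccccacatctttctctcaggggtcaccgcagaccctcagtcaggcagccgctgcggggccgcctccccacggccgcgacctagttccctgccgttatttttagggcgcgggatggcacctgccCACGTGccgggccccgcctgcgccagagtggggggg

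The window of the upstream start has a GC content of 61.2% with 13 CpG pairs, and that of the downstream start 67.2% with 16, against medians of 52.4% and 6 over 32851 windows of the same length. CACGTG is in the downstream window only and in 6.02% of all windows. CCAAT is in the upstream window only, as its reverse complement, and in 33.8% of all windows. TATAAA is in neither and in 12.4% of all. A match is a description of the letters and not a bound site, and the table holds no measure of transcription from either start.

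Slc2a3 also moved towards the exon nearer to the shared acceptor. The shared exon is exon 2 of Slc2a3-201 (gene ENSMUSG00000003153.10) on the minus strand at chr6:122740388-122740480. The junction from the nearer exon, the first exon of Slc2a3-201, had a log2 fold of 0.25 and that from the farther exon one of -1.19, by the authors' deposited table (p = 0.0353). The nearer-to-farther ratio was 2.72 times the mock ratio, and the implied share of the nearer exon went from 74.9% to 89.0%. The upstream form was thus the rarer one in both groups, at 25.1% in the mock knockdown and 11.0% in the knockdown.

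The farther Slc2a3 exon is not itself a first exon. It is exon 2 of 5 in Slc2a3-202, a protein-coding model that begins further upstream. Its junction spans an intron of 57321 bases, which ranked 15 of 408 among the longer introns of the 2-junction events, against 1895 bases for the nearer one. As printed above, the upstream exon supplies 7 codons and the nearer exon 5 before the same reading frame continues; Slc2a3-202 has 5 exons against 10 in Slc2a3-201, and the rest of the products was not compared. RefSeq promoter sequences were matched for 3 of the 5 genes, and Slc2a3 was not one of them.

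Lrrc8a had the largest change of ratio of all 408 events with 2 junctions, upstream of the annotated coding sequence. The shared acceptor opens exon 2 of Lrrc8a-201 (gene ENSMUSG00000007476.18), a non-coding exon at chr2:30240569-30240677 on the plus strand. The farther junction comes from the annotated first exon, which ends at 30237805, and had a log2 fold of 0.43 in the authors' deposited table. The nearer junction comes from a donor at 30240100 that no GENCODE M21 transcript uses, within the first intron, and its log2 fold in the authors' deposited table was -2.40 (p = 0.0216). The ratio of the unannotated to the annotated donor was 0.141 times the mock ratio.

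The implied share of the unannotated Lrrc8a donor went from 29.9% in the mock knockdown to 5.67% in the knockdown. Exon 2 is present in 1 of the 2 GENCODE transcripts of the gene, and the coding sequence begins later, at 30255176. Both junctions thus lie upstream of the annotated coding sequence. No model holds the unannotated donor, so whether its use alters the encoded channel subunit was not tested. Where the exon that ends at the unannotated donor begins cannot be told from a table of junctions.

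**Figure D3:**
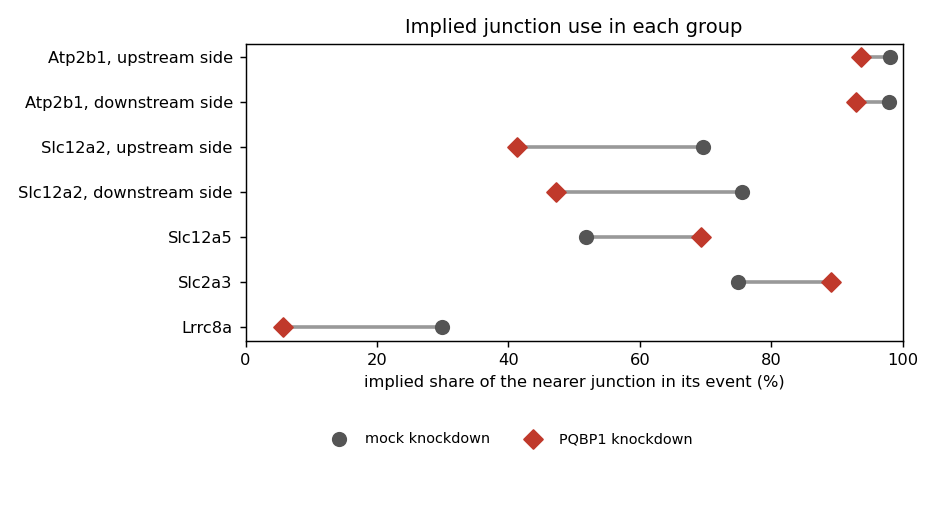
Points give the implied share, in percent, of the nearer junction in each event for the mock knockdown (grey circles) and the PQBP1 knockdown (red diamonds), with a line joining them; the values are derived from the authors' folds and have no replicate error. Slc12a2 and Lrrc8a span the widest intervals (from 75.5% to 47.2% and from 29.9% to 5.67%), while Atp2b1 is at 92.9% or more in both groups.

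The 5 genes did not share a direction. The nearer junction lost ground in 5 events (Atp2b1 and Slc12a2, each listed from 2 sides, and Lrrc8a) and gained in 2 (Slc12a5 and Slc2a3). Over the whole list the nearer junction was lower in 57.1% of the 408 events and higher in 42.9%. Of the 14 junction entries, 7 were higher and 7 lower, as 2 competing junctions per event require, and all 14 had a p under 0.05. Over all listed junctions with a p, 76.2% had a p under 0.05, with 37.8% higher and 38.4% lower in the knockdown. Every event in the list has at least 1 junction under 0.05, so a 2-junction event could not be listed otherwise, and the count of 14 says nothing particular about these genes.

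The size of the change depends on whether it is read as a ratio or as a share. On the log2 scale the change of ratio ranged in size from 1.07 in Slc12a5 to 2.83 in Lrrc8a, with a median of 1.76, against a median of 1.36 over the 408 events (interquartile range 1.01 to 1.74). In percentage points of implied share the 7 events had a median of 17.5, against 12.9 over the 408 (interquartile range 9.07 to 18.8). Slc12a2 ranked 95 and 113 of 408 by ratio but 15 and 17 by share, with changes of -28.4 and -28.3 points. Atp2b1 ranked 93 and 98 by ratio but 389 and 395 by share, with changes of -4.96 and -4.44 points. Lrrc8a ranked 1 by ratio and 49 by share (-24.3 points). Slc12a5 ranked 286 and 121 (17.5 points), and Slc2a3 179 and 178 (14.1 points).

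**Figure D4:**
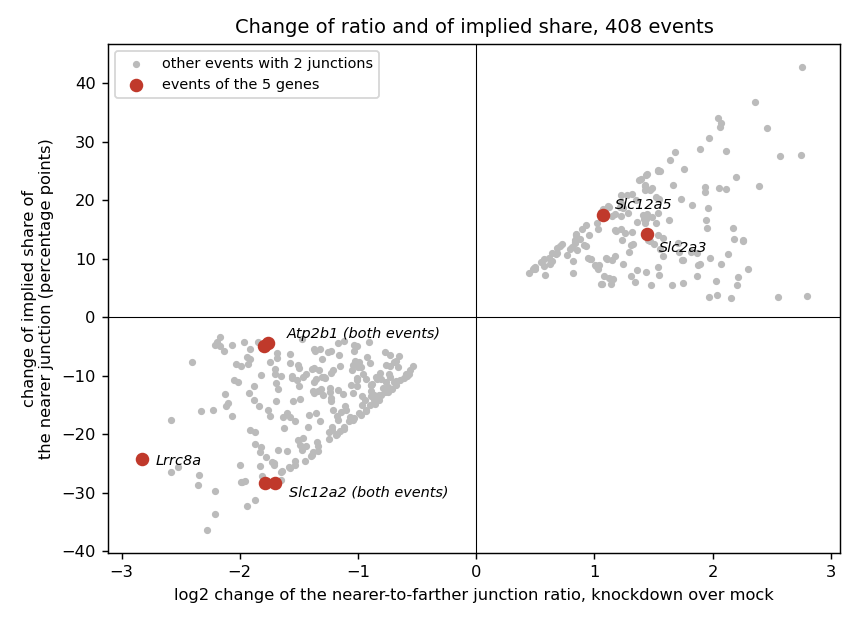
Each point is one of the 408 events with 2 junctions, placed by the log2 change of the nearer-to-farther ratio (horizontal) and the change of the implied share of the nearer junction in percentage points (vertical); red points are the 7 events of the 5 genes. Atp2b1 and Slc12a2 lie at like ratio changes but near the top and the bottom of the lower left group, at -4.96 and -28.4 points.

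In the 4 genes where the choice touches annotated coding sequence, it kept the reading frame. This held for cassette exons of 192 and 48 nt and for alternative starts that differ by 69 and 6 coding bases. Of the 224 distinct cassette exons in the list, 148 (66.1%) had a length that is a multiple of 3, so keeping the frame is common there. Both cassette exons of the 5 genes were skipped more and had a lower GC content than the median of the 134 distinct cassette exons skipped more, 41.1% in Atp2b1 and 45.8% in Slc12a2 against 53.4% (interquartile range 47.5% to 58.2%). The 90 cassette exons skipped less had a median of 48.9% (interquartile range 45.3% to 54.2%), a range that holds the Slc12a2 exon. So few exons do not show a trait of these genes. Of the 12 distinct junctions, 9 equal an annotated intron. The remaining 3 are the skipping junctions of Atp2b1 and Slc12a2, which were higher after knockdown, and the nearer junction of Lrrc8a, which was lower.

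Other pumps, exchangers, transporters and chloride channels were counted from a list of 228 genes, 13 of which had an event. Of the 42 junctions of those genes, 33 (78.6%) had a p under 0.05, 15 higher and 18 lower, close to the 76.2% of the whole list. Without the 5 genes it was 19 of 28 junctions (67.9%) in 8 genes, 8 higher and 11 lower. Of the 18 events of the 13 genes, 14 have 2 junctions, which share a p that had to be under 0.05 for the event to be listed. These shares thus follow largely from the mix of event types and say little about the genes. None of the 31 listed sodium, calcium, proton and bicarbonate exchangers and none of the 32 listed amino acid and neurotransmitter transporters had an event. The list is not complete: Slc38a10, of the SLC38 amino acid transporter family, and Slc39a11, of the zinc transporter family, are not on it and were noticed after their values were seen. Their nearer-to-farther ratio changed by 0.85 (p = 0.0440) and 1.24 (p = 0.0165) on the log2 scale, with the p-values of the authors' deposited table. Besides Slc12a2 and Slc12a5, none of the 17 cation-chloride cotransporters and their kinases had an event, and Lrrc8a was the single LRRC8 gene listed. The authors' list names only 457 genes, and how many genes were expressed highly enough to be tested is not given. The absence of a family from it therefore does not show that the family was unaffected.

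Among the other pumps, Atp6v0e2, a subunit of the vacuolar proton pump, resembled Atp2b1 in its ratios and implied shares. Its p-values in the authors' deposited table were lower, 0.00540 from the upstream and 0.00338 from the downstream side. Unlike the Atp2b1 exon, its exon is not a whole number of codons long. A cassette exon of 127 nt was at 0.288 and 0.266 times the mock inclusion ratio from its 2 sides, and its implied skipping was low in both groups, with inclusion from 98.0% to 93.4% and from 97.9% to 92.4%. Atp8a1, a phospholipid flippase, included a 45 nt exon at 0.356 and 0.329 times the mock ratio. Atp13a2, a lysosomal pump linked in humans to parkinsonism, used the nearer of its competing junctions at 0.540 times.

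Atp11b, another flippase, went the other way, with an exon of 126 nt at 2.14 times the mock inclusion ratio, and Ttyh1, of the tweety family of membrane proteins, used its nearer junction at 1.83 times. Some of these genes had an event with 3 or more junctions, for which no single ratio exists. In such an event the Atp11b exon is listed again from its upstream side. There the authors' deposited table gives log2 folds of 0.09 (p = 0.533) for the junction into the exon and -0.97 (p = 0.0375) for the skipping junction. The third junction had 0.26 (p = 0.381) in the authors' deposited table. In Ttyh3 the log2 folds were -1.30 (p = 0.00439), -0.03 (p = 0.630) and 0.48 (p = 0.0284) in the authors' deposited table, from the nearest to the farthest junction. In the authors' deposited table Atp6v1a, the catalytic subunit of the vacuolar proton pump, had 1 of 5 junctions under 0.05 (log2 fold -0.22, p = 0.0332). Slc25a14, a mitochondrial carrier, had 1 of 3 in the authors' deposited table (log2 fold -0.89, p = 0.0272).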

How the data were processed

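PolyA RNA of 5 samples was sequenced, 3 mock knockdown and 2 PQBP1 knockdown. Per the labels' protocols, RNeasy kits gave the RNA and the IntegenX PrepX kit the libraries. The submitters' processing notes name TopHat2 2.0.4 and the build mm10. How junction reads were counted, tested and filtered is not given in the sources used here. For each junction the authors deposited their p-value and, as knockdown over control, a log2 fold, per the file headers; 13 of 1402 junctions have an empty p. Depth per sample is unknown, and no sample-level test could be made.

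The start column was read as the last exonic base, and the intron as start + 1 to end + 1. With that reading, 1179 junctions (84.1%) equal a GENCODE M21 intron. An event's change was computed as nearer minus farther log2 fold. Implied shares solve for uses that add up to the whole in each group. In all 408 such events the folds have opposite signs, as this needs, but how the authors scaled the folds is not given, so the shares are approximate. The share computation and the p adjustment used among the alternatives were tested on simulated data. No test was run on the members, which were chosen, like the gene lists, with earlier results of these data known. All events of the 5 genes are named, and every gene of the transporter list with an event. Of the 228 list symbols, 227 are in RefSeq. Python 3.11.15 and pandas 2.3.3 were used. The coding sequence of the downstream Slc12a5 exon is not reported here.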

Additional observations from a re-analysis of the deposited data

How the results depend on the processing

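Of the 14 junction entries under 0.05, 2 were under 0.01, both in the Slc12a2 event read from the downstream acceptor. After Benjamini-Hochberg adjustment of the authors' p over the listed junctions, 2 passed, again those of that Slc12a2 event at 0.0483, and the other entries ran from 0.0586 to 0.0651. That adjustment covers the listed junctions alone, which had been selected by p, and is not one over all junctions measured. With annotated introns only, 9 of the 14 were counted, since fewer junctions enter. Of the 33 junctions of the transporter list, 7 were under 0.01. The difference in implied share and the fold of the rarer junction alone have the sign of the ratio change by construction, so they say nothing about stability. The listing of the same exon from its other side, for Atp2b1 and Slc12a2, had the same direction but reuses the skipping junction. Rounding the folds to 2 decimals moved the implied change by at most 0.313 percentage points, in Atp2b1, where the folds of the inclusion junction are near 0 and the share of skipping is the least certain. No paired analysis was possible because the table holds no values per sample, and for the same reason no replicate could be left out.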
